A study of Rattus norvegicus with 12 samples.

Results

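The genes of mitosis and of the G2/M transition are the subject here, 42 genes of the 20152 listed in RNA sequencing of rat dorsal root ganglia, which hold the cell bodies of sensory neurons. They are known mitotic genes taken by symbol from the deposited tables, in a choice made with earlier results of these data known. The 12 libraries fell into 3 groups of 4: rats given vehicle, rats given paclitaxel at 2.0 mg/kg and rats given oxaliplatin at 2.4 mg/kg. Paclitaxel, dissolved in DMSO and diluted in saline, is a drug that stabilises microtubules, and oxaliplatin, dissolved in glucose solution, is a platinum compound that forms adducts on DNA. Both were given intraperitoneally as models of neuropathic pain caused by chemotherapy, and the design asks how the ganglion transcriptome differed from vehicle and between the drugs. The labels give a single vehicle group without saying which solvent it received, and do not give strain, age, dosing schedule or the time of tissue collection.

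The products of these genes act when a cell leaves G2 and divides: CDK1 with its A and B cyclins starts mitosis, kinetochores and motors attach and move the chromosomes, the spindle checkpoint holds anaphase back until they are attached, and the central spindle directs cytokinesis. Most of these genes are transcribed late in the cell cycle, and the DREAM complex, which binds CHR elements in their promoters, represses them in cells that rest, while B-MYB and FOXM1 with the MuvB core activate them in cells that divide. Sensory neurons of the adult ganglion do not divide, whereas satellite glia, Schwann cells, endothelial cells, fibroblasts and immune cells can. In RNA from whole ganglia, a higher share of cells in division and more RNA per dividing cell cannot be told apart.

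Estimated counts summed to 17008728 to 17615736 per library, and 15809 genes passed the filter on low counts and were tested. All 16 neuronal markers examined were detected at a mean FPKM above 1, so the libraries carried the defining transcripts of the labelled tissue. All 42 mitotic genes passed the filter and were above its count level in each vehicle library, so none entered the test through the oxaliplatin group alone. The labels do not say whether the 4 replicates of a group came from separate animals, so the p-values below rest on a spread between libraries that may be technical. Levels are given as FPKM, which is scaled to gene length and library size, and a difference is a log2 fold change ± its standard error from edgeR's quasi-likelihood test on counts. A gene is called at an adjusted p (Benjamini-Hochberg over all 15809 genes) under 0.05.

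The promoters of the group carry letters that the choice of genes by symbol did not use, and 6 of them are shown: 5 of genes that were called higher after oxaliplatin, and that of Ccnb1, the paralog of Ccnb2 that was not called. These 6 were chosen after their values were seen. Each stretch is the 130 bases before the annotated start in RefSeq's promoter table for rat assembly GRCr8, written 5' to 3' on the gene's strand. Capitals mark TTTGAA and TTTAAA, the letters of the CHR (cell cycle genes homology region), and CCAAT, the letters bound by NF-Y, on either strand, so that TTCAAA and ATTGG are matches read from the opposite strand.
Ccnb2, called higher after oxaliplatin, chr8:79981659-79981788 (- strand): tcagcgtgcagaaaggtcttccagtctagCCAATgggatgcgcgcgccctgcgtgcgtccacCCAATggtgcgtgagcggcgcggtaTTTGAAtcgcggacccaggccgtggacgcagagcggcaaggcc
Ckap2, called higher, chr16:76541984-76542113 (+ strand): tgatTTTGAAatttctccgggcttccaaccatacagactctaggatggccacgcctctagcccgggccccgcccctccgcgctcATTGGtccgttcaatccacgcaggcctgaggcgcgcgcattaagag
Cdk1, called higher, chr20:19265163-19265292 (+ strand): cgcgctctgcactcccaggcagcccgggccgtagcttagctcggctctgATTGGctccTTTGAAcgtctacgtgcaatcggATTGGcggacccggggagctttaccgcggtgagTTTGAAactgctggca
Top2a, called higher, chr10:84473094-84473223 (- strand): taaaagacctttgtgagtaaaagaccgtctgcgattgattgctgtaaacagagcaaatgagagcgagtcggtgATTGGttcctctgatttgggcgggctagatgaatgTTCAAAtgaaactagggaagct
Prc1, called higher, chr1:143659351-143659480 (+ strand): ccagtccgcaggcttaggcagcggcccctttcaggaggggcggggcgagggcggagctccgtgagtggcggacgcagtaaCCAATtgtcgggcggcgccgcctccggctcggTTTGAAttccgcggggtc
Ccnb1, not called, chr2:33655226-33655355 (- strand): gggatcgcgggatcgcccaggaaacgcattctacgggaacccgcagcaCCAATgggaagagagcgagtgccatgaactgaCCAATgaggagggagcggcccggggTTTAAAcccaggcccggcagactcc

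A window of 250 bases before to 50 bases after the start was found for 35 of the 42 genes, and none for Tpx2, Aurkb, Ccna2, Ube2c, Cdca2, Racgap1 and Zwint. TTTGAA or TTTAAA was present on either strand in 33 of the 35 (94.3%), against 20.7% of the 12194 tested genes that had a window and 29.6% of the 27457 genes in the table. CCAAT was present in 74.3% of the mitotic promoters and 38.7% of those of all tested genes, and both kinds of letters together in 71.4% and 8.27%. The letters TTCCCGC, of E2F sites, were in 2.86% of the mitotic promoters, 42.9% of those of S phase and replication genes and 8% of those of all tested genes. TTGGCGC, the other E2F letters searched, was in 8.57%, 25.7% and 4.22% of the same groups. The CHR letters were as frequent in the genes called higher after oxaliplatin (16 of 17 with a window) as in the others (17 of 18). These are matches of letters in a window and were not tested as binding sites.

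After oxaliplatin, 21 of the 42 mitotic genes rose and 1, Zwint, fell against vehicle. Over all genes tested, 1.05% were called higher and 0.708% lower in the same comparison. The median log2 fold change of the 42 genes was 0.91, against 0.01 over all genes tested, and 16 differed by more than 2-fold. The 21 that rose did so by log2 fold changes of 0.84 to 1.81, and in each of them all 4 oxaliplatin libraries lay above all 4 vehicle libraries. Groups stood apart in this way in 36 of the 42 genes, against 5.54% of all genes tested, and on the lower side in Zwint alone, against 5.78%. Of the 20 genes not called, 10 had adjusted p-values between 0.05 and 0.1 (edgeR), and all 20 were above vehicle in their fitted log2 fold change.

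**Figure D1:**
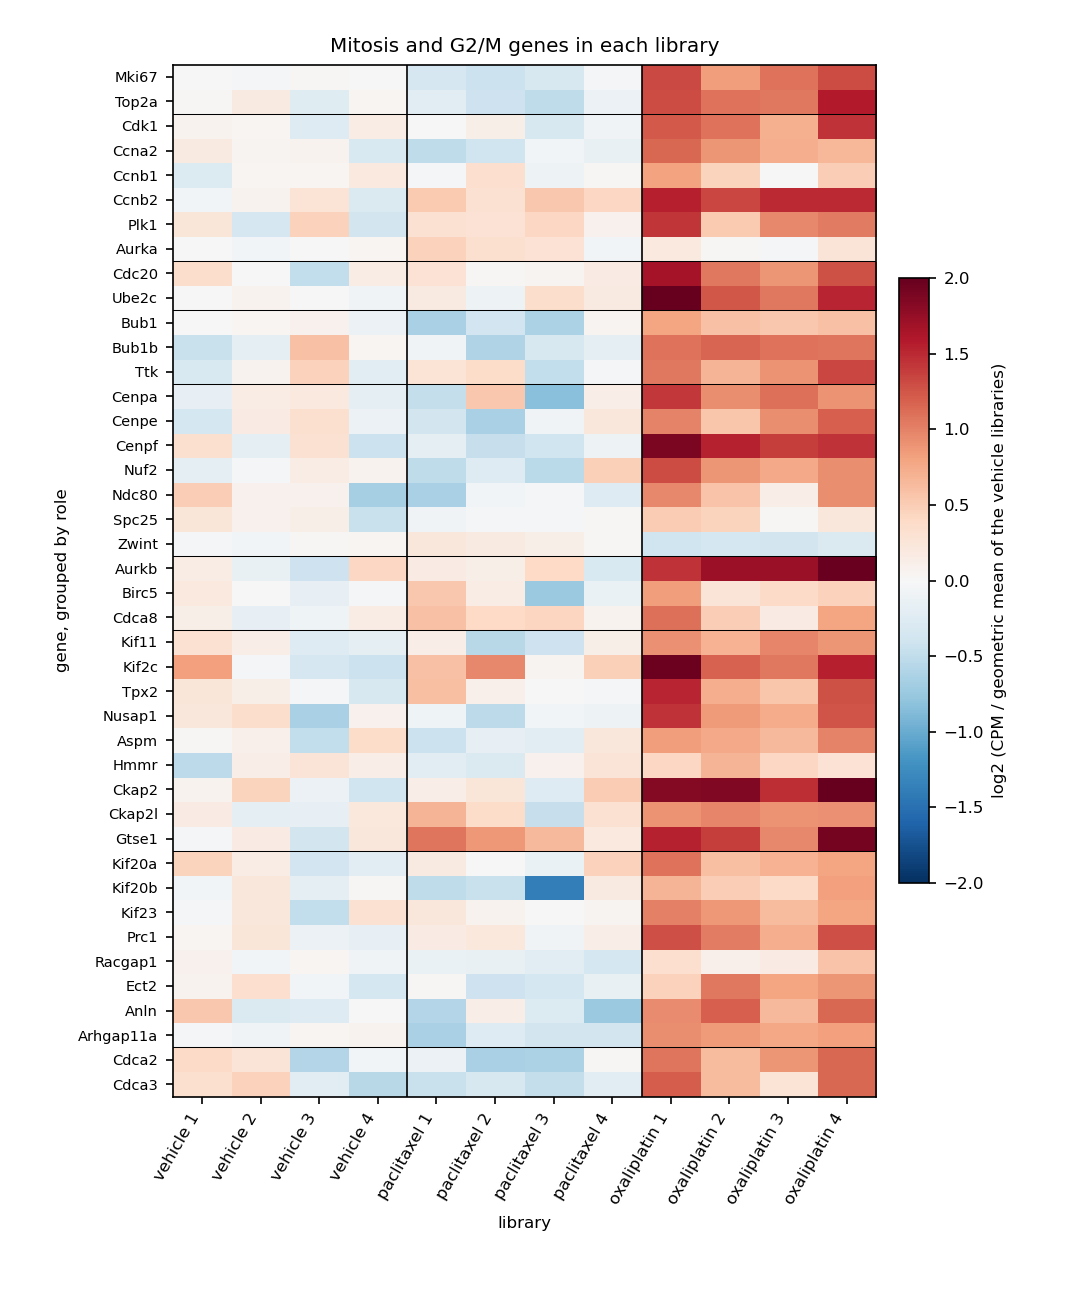
Log2 ratio of each gene's CPM in each library (columns) to the geometric mean of the 4 vehicle libraries, with genes (rows) grouped by role, red above and blue below vehicle. The 4 oxaliplatin columns are red for nearly all genes, Zwint is blue in all 4, and the paclitaxel columns show both colours.

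The pattern was present in each oxaliplatin library. The FPKM of the 41 genes other than Zwint summed to 65.6, 63.1, 58.9 and 59.9 in the vehicle libraries, to 63.9, 62.2, 58.2 and 62.0 after paclitaxel and to 124.5, 102.0, 96.0 and 122.1 after oxaliplatin. All 4 oxaliplatin libraries were thus above the other 8, and the mean sum was 1.80 times that of vehicle. Of the 41 genes, 41, 40, 36 and 40 were above all vehicle libraries in oxaliplatin replicates 1 to 4, with median log2 ratios to the vehicle mean of 1.09, 0.84, 0.76 and 1.04. The number of calls depended on single libraries: it fell from 21 to 12 without vehicle 2, vehicle 4 or oxaliplatin 1, and to 13 without oxaliplatin 4. Calls higher over all genes fell in the same fits from 166 to 56, 36, 61 and 93, while the median log2 fold change of the 42 genes stayed between 0.86 and 0.94. The calls of Mki67, Top2a, Cdk1, Ccnb2, Cdc20, Ube2c, Cenpf, Aurkb, Ckap2, Gtse1, Prc1 and Arhgap11a held in all 12 fits that left out 1 library. Those of Ccna2, Bub1b, Cenpe, Nuf2, Kif11, Kif2c, Tpx2, Nusap1 and Anln were each lost in 6 to 10 of these fits, with adjusted p-values of up to 0.153 (edgeR).

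Mki67 and Top2a mark dividing cells. Mki67, which encodes Ki-67, a protein of the mitotic chromosome surface, had 1.03, 1.00, 1.04 and 1.03 FPKM in the vehicle libraries and 2.57, 1.87, 2.26 and 2.6 after oxaliplatin. Top2a, the topoisomerase that untangles sister chromatids, had 1.22, 1.33, 1.00 and 1.22 FPKM in vehicle and 2.94, 2.58, 2.56 and 3.69 after oxaliplatin. In both genes the 4 oxaliplatin libraries stood clear of the vehicle and paclitaxel libraries. Top2a rose 2.41-fold (log2 fold change 1.27 ± 0.15, adjusted p = 0.000891, edgeR), and Mki67 2.22-fold (1.15 ± 0.12, adjusted p = 0.000385). Mki67 is uncertain, since its estimated count was not whole in all 12 libraries, as happens when reads are divided between genes.

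Of the 6 mitotic kinases and cyclins, 3 rose: Cdk1, Ccna2 and Ccnb2. Cdk1, the kinase that starts mitosis, had 2.35, 2.33, 1.81 and 2.66 FPKM in vehicle and 5.41, 5.02, 3.77 and 6.36 after oxaliplatin, with no overlap (log2 fold change 1.13 ± 0.18, adjusted p = 0.00959, edgeR). Ccnb2, cyclin B2, went from 1.28, 1.37, 1.60 and 1.08 FPKM to 3.89, 3.39, 3.87 and 3.84 (1.46 ± 0.16, adjusted p = 0.000608). The 4 oxaliplatin values of Ccnb2 lay close together, well above the highest vehicle value. Its paralog Ccnb1, cyclin B1, was not called (0.46 ± 0.17, adjusted p = 0.191), with 1.53, 1.85, 1.87 and 2.09 FPKM in vehicle and 3.19, 2.54, 1.91 and 2.64 after oxaliplatin. The oxaliplatin 3 value of Ccnb1 lay within the vehicle range.

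Aurka, the kinase of centrosomes and spindle poles, was the member of this group with the highest level and the smallest difference. It had 10.70, 10.13, 10.75 and 10.90 FPKM in vehicle and 12.21, 11.04, 10.61 and 13.06 after oxaliplatin, with overlapping groups (0.12 ± 0.11, adjusted p = 0.644, edgeR). Plk1, the polo-like kinase of mitotic entry, had a log2 fold change of 0.98 ± 0.23 and an adjusted p of 0.053, and its oxaliplatin libraries were above vehicle in all 4. Ccna2 (cyclin A2, 0.85 ± 0.17), Ccnb1, Ccnb2 and Aurka are uncertain, with counts that were not whole in 12, 12, 7 and 7 libraries.

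Cdc20 and Ube2c, the activator and the ubiquitin-conjugating enzyme of the anaphase-promoting complex, both rose. Ube2c had 1.90, 1.95, 1.87 and 1.79 FPKM in vehicle and 7.61, 4.53, 4.05 and 5.57 after oxaliplatin. The vehicle values of Ube2c differed little and the lowest oxaliplatin value was above all of them, while oxaliplatin 1 was the highest (1.5 ± 0.22, adjusted p = 0.00537, edgeR). Cdc20 rose 2.32-fold (1.22 ± 0.20, adjusted p = 0.0115).

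The 3 spindle checkpoint kinases were each above vehicle in all 4 oxaliplatin libraries, and 1 of them, Bub1b, was called. Bub1, which recruits checkpoint proteins to kinetochores, had 1.00, 1.00, 1.06 and 0.91 FPKM in vehicle and 1.72, 1.51, 1.48 and 1.53 after oxaliplatin (0.62 ± 0.16, adjusted p = 0.072, edgeR). Ttk, the kinase MPS1, had 0.28, 0.32, 0.41 and 0.26 FPKM in vehicle and 0.69, 0.54, 0.64 and 0.89 after oxaliplatin (0.98 ± 0.26, adjusted p = 0.0747). Bub1 and Ttk were thus separated from vehicle in every library without passing the adjusted threshold. Bub1b, the checkpoint protein BUBR1, rose 2.06-fold (1.05 ± 0.23, adjusted p = 0.0363).

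Among the 7 centromere and kinetochore genes, Cenpf, Cenpe and Nuf2 rose and Zwint fell. Cenpf, a large kinetochore and nuclear matrix protein, had the lowest vehicle level of all 42 genes, with 0.24, 0.16, 0.24 and 0.14 FPKM, and reached 0.70, 0.56, 0.52 and 0.53 after oxaliplatin (1.54 ± 0.20, adjusted p = 0.00254, edgeR). Nuf2, which with Ndc80 and Spc25 belongs to the complex that holds microtubule ends, had 0.97, 1.06, 1.21 and 1.15 FPKM in vehicle and 2.70, 2.05, 1.92 and 2.15 after oxaliplatin (0.98 ± 0.23, adjusted p = 0.049). In both genes the groups did not overlap, although Nuf2 only just passed the threshold. Spc25 had 1.97, 1.72, 1.80 and 1.22 FPKM in vehicle and 2.36, 2.30, 1.75 and 2.00 after oxaliplatin, with overlap (0.30 ± 0.19, adjusted p = 0.464). Ndc80 (0.62 ± 0.26, adjusted p = 0.232) and Cenpa, the centromeric histone (1.08 ± 0.29, adjusted p = 0.0722), were not called either, and Cenpe, the kinesin that carries chromosomes to the spindle equator, rose 1.88-fold (adjusted p = 0.049).

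Zwint stood apart from the other 41 genes in level and in direction. It encodes a kinetochore protein of the outer plate, and the rat protein is also known as a binding partner of the synaptic protein SNAP-25. Zwint had 926.5, 890.5, 955.4 and 960.5 FPKM in vehicle, 1022, 1031, 973.7 and 948.9 after paclitaxel and 710.6, 742.8, 746.9 and 787.8 after oxaliplatin. All 4 oxaliplatin libraries were below the other 8, and Zwint fell to 0.782 of its vehicle level (log2 fold change -0.35 ± 0.07, adjusted p = 0.032, edgeR). It held 93.4% to 94.4% of the summed FPKM of the 42 genes in the vehicle and paclitaxel libraries and 85.1% to 88.6% after oxaliplatin. The call was lost in 9 of the 12 fits that left out 1 library (adjusted p up to 0.11), with log2 fold changes of -0.39 to -0.31 over all settings tried. Summed neuronal markers were also lower, at 10530 to 11980 FPKM in vehicle and 8080 to 10250 after oxaliplatin. Of the 16 markers, edgeR called 2 lower (Nefl and Nefm, neurofilament chains), against 0.708% of all genes tested. Their median log2 fold change was -0.18, against 0.01 over all genes. DESeq2 and limma voom each called 3 of the 16 lower, against 453 of 20152 and 271 of 15809 genes. The part of neuronal RNA in the Zwint difference was not tested.

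The chromosomal passenger complex corrects attachments at the centromere and acts again in cytokinesis. Its kinase Aurkb rose 3.22-fold, from 0.84, 0.66, 0.54 and 0.97 FPKM in vehicle to 2.02, 2.49, 2.58 and 2.92 after oxaliplatin (1.69 ± 0.22, adjusted p = 0.00254, edgeR). Birc5, the subunit survivin, had 2.85, 2.43, 2.22 and 2.41 FPKM in vehicle and 4.41, 3.0, 3.33 and 3.49 after oxaliplatin (0.49 ± 0.24, adjusted p = 0.319). Cdca8, the subunit borealin, had 2.45, 1.98, 2.10 and 2.51 FPKM in vehicle and 4.84, 3.24, 2.6 and 4.0 after oxaliplatin (0.67 ± 0.20, adjusted p = 0.105). The 2 subunits were above vehicle in all 4 oxaliplatin libraries without being called. Whether Aurkb differed from them in its response was not tested.

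Spindle assembly genes and motors held the largest difference. Ckap2, a microtubule-associated protein of the spindle, had 1.03, 1.31, 0.90 and 0.74 FPKM in vehicle, 1.00, 1.12, 0.78 and 1.38 after paclitaxel and 3.5, 3.6, 2.82 and 4.38 after oxaliplatin. It rose 3.5-fold over vehicle (1.81 ± 0.21, adjusted p = 0.000891, edgeR), and its lowest oxaliplatin value was well above the highest of the other 8. Tpx2, which activates Aurora A on the spindle, had 2.06, 1.83, 1.69 and 1.38 FPKM in vehicle and 5.02, 2.85, 2.58 and 4.32 after oxaliplatin, so the treated libraries were spread widely but lay above vehicle (1.06 ± 0.22, adjusted p = 0.0347). Hmmr, a spindle protein also known as a hyaluronan receptor, had 1.51, 2.32, 2.56 and 2.34 FPKM in vehicle and 2.86, 3.49, 2.95 and 2.69 after oxaliplatin and was not called (0.42 ± 0.18, adjusted p = 0.255). The motors Kif11 (0.85 ± 0.19), which pushes spindle poles apart, and Kif2c (1.39 ± 0.31), which shortens microtubule ends, also rose, as did Nusap1 (1.05 ± 0.23) and Gtse1 (1.47 ± 0.24), with adjusted p-values of 0.0374, 0.0395, 0.0363 and 0.00959. Aspm, a protein of spindle poles, and Ckap2l were above vehicle in all 4 libraries with adjusted p-values of 0.053 and 0.0604 (edgeR). Aspm is uncertain, since its count was not whole in 11 libraries.

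Of the 8 genes of the central spindle and cytokinesis, Prc1, Anln and Arhgap11a rose. Prc1, which bundles the antiparallel microtubules of the central spindle, had 1.85, 2.16, 1.64 and 1.58 FPKM in vehicle and 4.42, 3.79, 3.12 and 4.48 after oxaliplatin, without overlap (1.09 ± 0.15, adjusted p = 0.00351, edgeR). Kif20a, a kinesin of the same structure, had 3.28, 2.59, 1.82 and 2.06 FPKM in vehicle and 5.06, 3.68, 3.98 and 4.24 after oxaliplatin (0.77 ± 0.19, adjusted p = 0.0538), and is uncertain because its count was not whole in 12 libraries. Racgap1, a subunit of centralspindlin, had 6.78, 5.97, 6.47 and 6.0 FPKM in vehicle and 7.75, 6.98, 7.49 and 9.81 after oxaliplatin (0.30 ± 0.11, adjusted p = 0.176). Kif20a and Racgap1 stood above vehicle in every oxaliplatin library and were not called. Arhgap11a rose 1.79-fold with little spread (0.84 ± 0.12, adjusted p = 0.00475), and Anln, the cytokinetic ring protein anillin, 1.95-fold (0.96 ± 0.23, adjusted p = 0.0498). Kif23, the centralspindlin motor, Ect2, which acts in cytokinesis, and Kif20b had log2 fold changes of 0.80, 0.79 and 0.60 and were not called.

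The remaining genes, Cdca2, which targets protein phosphatase to chromosomes in anaphase, and Cdca3, an adaptor for mitotic entry, were not called. Cdca3 had 2.36, 2.64, 1.64 and 1.27 FPKM in vehicle and 4.52, 3.09, 2.44 and 4.44 after oxaliplatin, and oxaliplatin 3 lay within the vehicle range (0.81 ± 0.25, adjusted p = 0.12, edgeR). Cdca2 had a log2 fold change of 0.90 ± 0.25 (adjusted p = 0.0842).

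**Figure D2:**
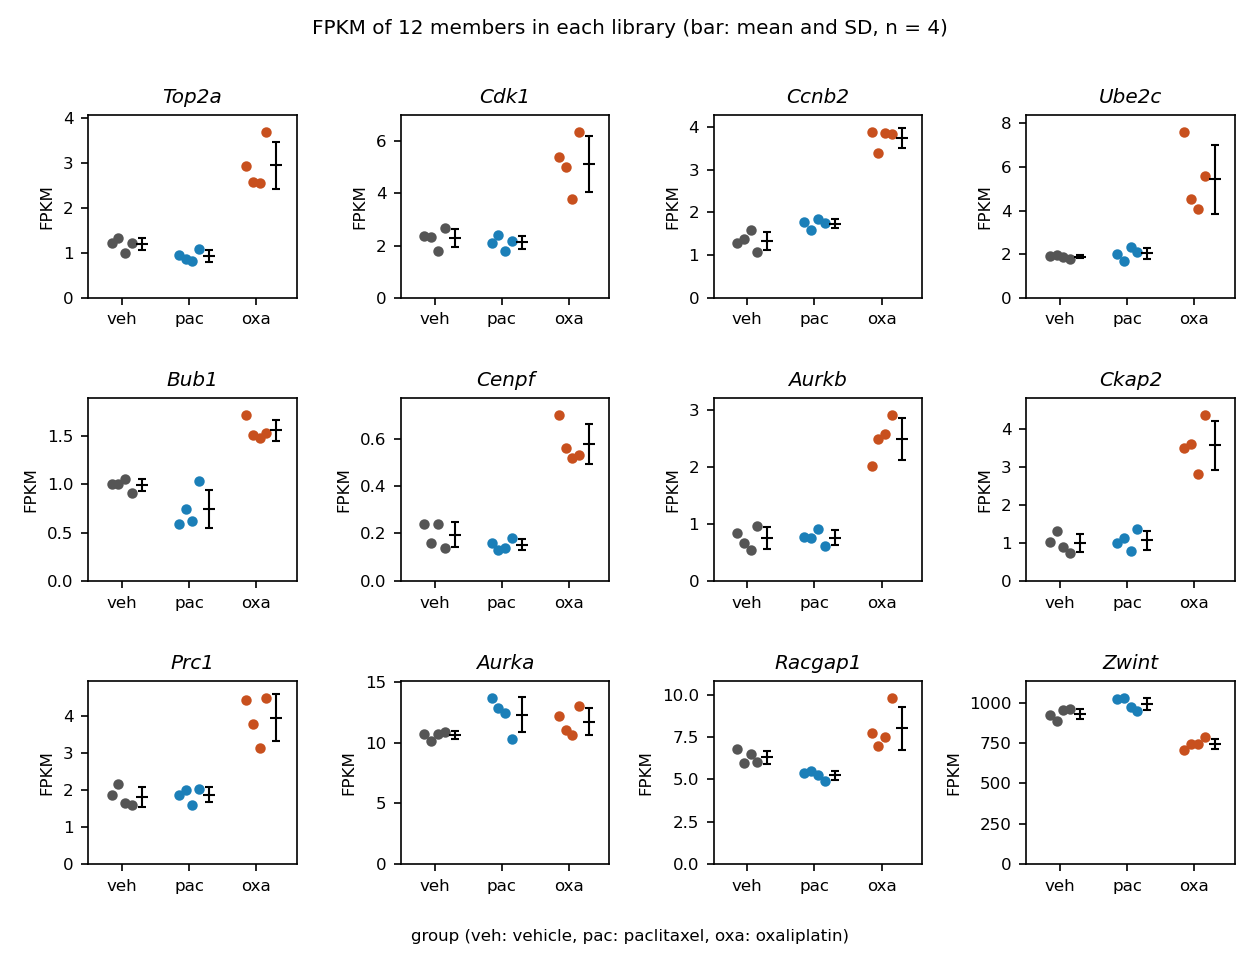
FPKM of 12 of the genes in each library (points) by group, with the mean and SD of the 4 libraries beside them and each axis from 0, the genes chosen after their values were seen. All panels but that of Aurka separate the oxaliplatin libraries from the other 8, on the higher side except for Zwint.

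The 42 genes differed in level by orders of magnitude, and those with the highest levels were not the ones that rose. At a mean vehicle FPKM above 4 stood 3 genes (Zwint, Aurka and Racgap1), of which 0 were called higher, with log2 fold changes of -0.35 to 0.30. Of the 19 genes between 1 and 4 FPKM, 12 rose, with a median log2 fold change of 0.98, and of the 20 below 1 FPKM, 9 rose, with a median of 0.94. The lower 2 classes therefore had similar medians. The median of the 42 genes in vehicle was 1.06 FPKM, the 14.3 percentile of all genes tested, and it stood at the 23.4 percentile after oxaliplatin.

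**Figure D3:**
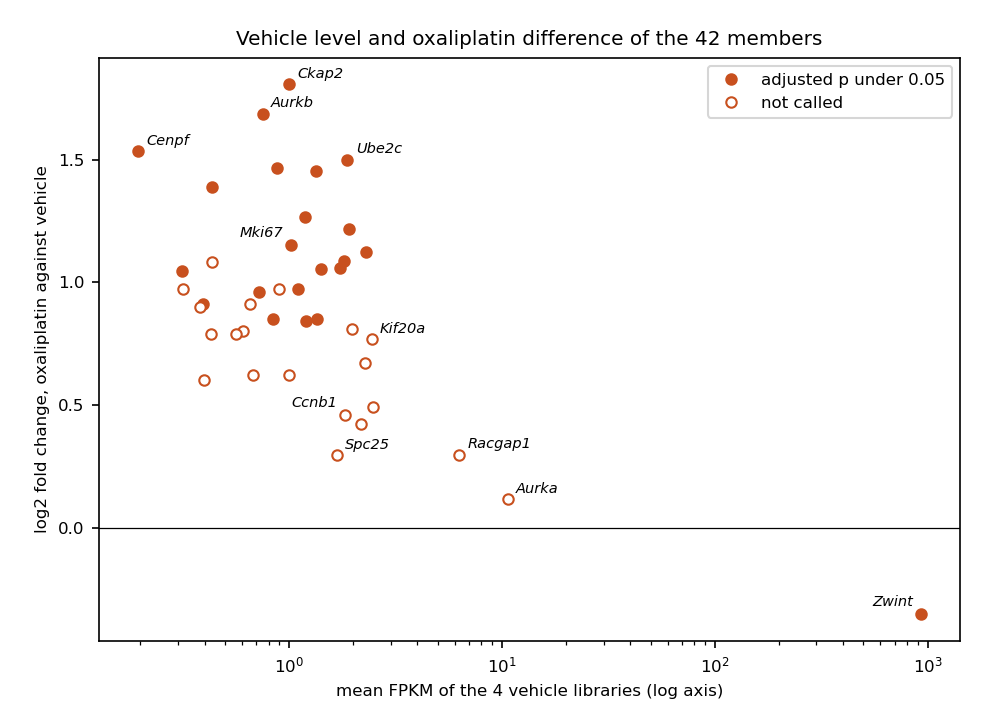
Mean vehicle FPKM of each gene (x axis, log scale) against its log2 fold change between oxaliplatin and vehicle (y axis), filled where the adjusted p was under 0.05. Zwint, Aurka and Racgap1, the 3 genes above 4 FPKM, lie between -0.35 and 0.30, and the other 39 between 0.30 and 1.81.

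After paclitaxel, a drug that holds dividing cells in mitosis in culture, 0 of the 42 genes were called higher and 0 lower by edgeR, against 0.0822% and 0.038% of all genes tested. DESeq2 also called 0 and 0, while limma voom called 2 higher and 1 lower, shares of the 42 below the 6.98% and 5.78% of all genes that voom called. At an unadjusted p under 0.05, 6 of the 42 passed, 3 higher and 3 lower, against 17.1% of all genes tested. The median log2 fold change of the 42 was -0.06, against -0.01 over all genes. The libraries of Ccnb2 stood apart from vehicle on the higher side, those of Racgap1 and Arhgap11a on the lower side (CPM), against 3.86% and 3.11% of all genes tested.

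The genes with the smallest p-values lay on both sides of vehicle. Gtse1, a microtubule and p53 regulator of G2, had 1.71, 1.51, 1.31 and 0.96 FPKM after paclitaxel and 0.86, 0.96, 0.67 and 1.02 in vehicle (0.71 ± 0.24, adjusted p = 0.221, edgeR). Paclitaxel 4 lay within the vehicle range of Gtse1. Arhgap11a had 0.71, 0.98, 0.90 and 0.92 FPKM after paclitaxel and 1.18, 1.13, 1.24 and 1.26 in vehicle, with no overlap (-0.41 ± 0.13, adjusted p = 0.209). Bub1 had 0.59, 0.74, 0.62 and 1.03 FPKM after paclitaxel (-0.37 ± 0.17, adjusted p = 0.283), with paclitaxel 4 in the vehicle range. Aurka had 13.69, 12.85, 12.46 and 10.29 FPKM (0.27 ± 0.11, adjusted p = 0.259), and there too paclitaxel 4 lay within the vehicle range. Without paclitaxel 4, Gtse1 (0.85, adjusted p = 0.0399) and Aurka (0.36, adjusted p = 0.0386) were called higher and Bub1 (-0.55, adjusted p = 0.0399) lower. That fit called 5.77% of all genes higher and 4.45% lower, so the 2 and 1 of 42 are no larger a share than over all genes.

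**Figure D4:**
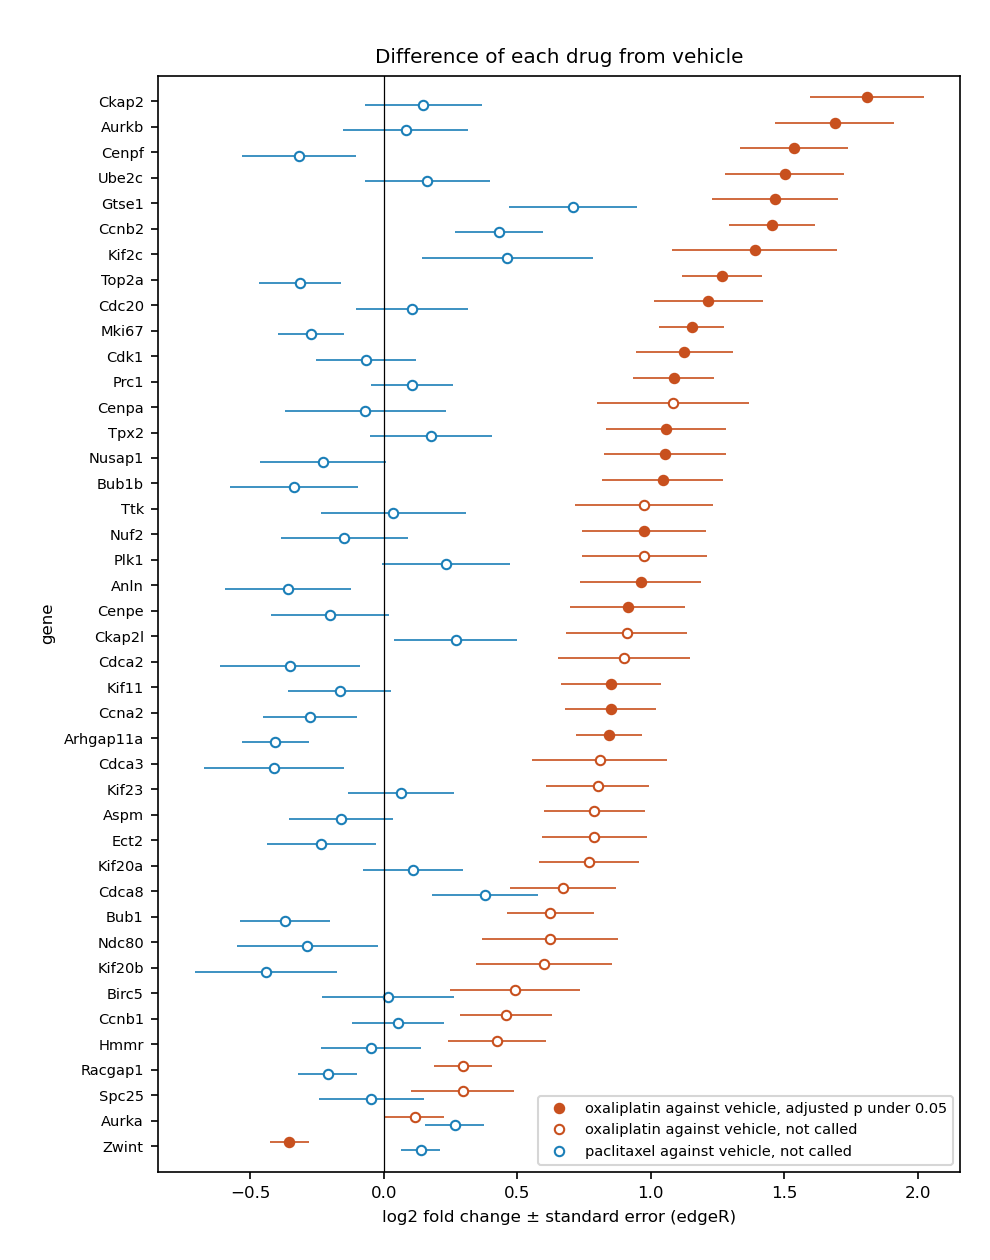
Log2 fold change ± standard error (edgeR) of each gene for oxaliplatin (orange) and paclitaxel (blue) against vehicle, filled where the adjusted p was under 0.05, genes ordered by the oxaliplatin value. The oxaliplatin values run from -0.35 (Zwint) to 1.81 (Ckap2), the paclitaxel values from -0.44 to 0.71 with none filled. Both sets share the vehicle libraries.

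Compared directly, 32 of the 42 genes were called higher after oxaliplatin than after paclitaxel and 1, Zwint, was called lower, against 6.6% and 4.71% of all genes tested. The median log2 difference was 1.02, against 0.00 over all genes, and 22 genes differed by more than 2-fold. Among the 32 called higher, 30 had no overlap between the 2 groups (CPM), while Tpx2 and Gtse1 overlapped. Groups stood apart on the higher side in 34 genes in all, against 9.16% of all genes tested, and on the lower side in Zwint, against 6.1%. Over both vehicle and paclitaxel, 20 genes were called higher after oxaliplatin, 1 (Kif2c) over vehicle alone, 12 over paclitaxel alone and 9 over neither. Since oxaliplatin libraries enter both comparisons, these counts are not independent. Markers of other cell types were called higher in the same comparison, 11 of 15 erythroid, 11 of 15 B lineage, 9 of 12 fibroblast, 7 of 11 adipocyte, 7 of 16 macrophage and 6 of 12 endothelial, and 8 of 16 neuronal markers were called lower. Against vehicle, edgeR called 2 macrophage and 1 B lineage marker lower after paclitaxel, against 0.038% of all genes, and no others of these lists. At an unadjusted p under 0.05, 15 of 16 macrophage, 7 of 12 fibroblast and 5 of 15 erythroid markers were lower. So were 3 of 12 endothelial, 2 of 15 B lineage and 2 of 11 adipocyte markers, and 0 were higher. Of the neuronal markers, 8 were higher and 0 lower, against 1452 and 1245 of all 15809 genes. The part of these markers in the difference of the mitotic genes between the drugs was not tested.

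The largest difference between the drugs was that of Cenpf (1.85 ± 0.21, adjusted p = 0.000551, edgeR), which had 0.16, 0.13, 0.14 and 0.18 FPKM after paclitaxel. Ckap2 (1.66 ± 0.21), Aurkb (1.61 ± 0.22), Top2a (1.58 ± 0.15) and Mki67 (1.43 ± 0.12) followed. All 8 genes of the central spindle and cytokinesis were called, including Racgap1 (0.51 ± 0.11, adjusted p = 0.0135), which had 5.35, 5.47, 5.23 and 4.88 FPKM after paclitaxel. Zwint was lower by 0.49 on the log2 scale (-0.49 ± 0.07, adjusted p = 0.00311). The 9 called higher over neither group were Zwint, Aurka, Ccnb1, Plk1, Spc25, Birc5, Cdca8, Hmmr and Ckap2l. Aurka differed between the drugs by -0.15 ± 0.11, and Ccnb1, Spc25, Birc5, Cdca8 and Hmmr by 0.29 to 0.47.

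Markers of other cell types differed between the same libraries. Summed FPKM of erythroid markers without the haemoglobins was 65.7 to 76.8 in vehicle, 34.4 to 60.4 after paclitaxel and 156.5, 90.7, 173.2 and 77.2 after oxaliplatin, and that of B lineage and precursor markers was 34.6 to 42.9, 23.8 to 34.0 and 98.2, 37.8, 93.7 and 48.4. With the haemoglobins the erythroid sum was 2315 to 4750 in vehicle, 1006 to 2798 after paclitaxel and 14560, 7357, 17230 and 5073 after oxaliplatin, above every vehicle library. Among the oxaliplatin libraries, both lists were highest in oxaliplatin 1 and 3. The mitotic sum was highest in oxaliplatin 1 and 4 and lowest in oxaliplatin 3. In oxaliplatin 2 the mitotic sum was 102.0, against at most 65.6 in vehicle. There the B lineage sum lay within the vehicle range and the erythroid sum above it, at 90.7 without and 7357 with the haemoglobins. In oxaliplatin 4 the mitotic sum was 122.1, with erythroid sums of 77.2 without and 5073 with the haemoglobins. Its B lineage sum of 48.4 was above the highest vehicle value of 42.9. Whether the mitotic sum followed either list was not tested. With only oxaliplatin 2 and 4 in that group, a setting chosen after seeing the data, 10 mitotic genes were called higher over vehicle, against 0.211% of all genes. Both libraries still had erythroid sums above every vehicle library, so this setting cannot separate the mitotic difference from the markers. Of 15 erythroid and 15 B lineage markers tested, edgeR called 0 higher over vehicle in each list. At an unadjusted p under 0.05, 10 and 11 were higher, against 1452 of all 15809 genes. Limma voom called 2 and 0 higher, against 328 of 15809 genes. DESeq2, which fitted 17 and 19 of the markers, called 7 and 3, against 427 of 20152 genes. The median log2 fold changes were 1.20 and 1.23, and 1 erythroid marker, Tfrc, was called lower. No marker of either list was at 0 in every library.

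With the erythroid or the B lineage level of each library as a covariate, the median log2 fold change of the 42 genes over vehicle was 1.02 and 0.89, and 9 were called higher in each fit, against 0.183% and 0.164% of all genes (1.05% without a covariate). Between the drugs 1 of the 42 was called higher with either covariate, against 0.019% of all genes, or 3 genes in each fit, where 1044 were called without a covariate. The median log2 difference of the 42 genes between the drugs was 1.25 and 1.01 in these fits and 1.02 without a covariate. The covariate was the mean log2 CPM of the tested markers of a list in each library, not their summed FPKM. Erythroid sums without haemoglobins did not overlap between the groups, and B lineage sums overlapped only between vehicle and oxaliplatin 2. With the haemoglobins, erythroid sums overlapped between vehicle (2315 to 4750) and paclitaxel (1006 to 2798). Since the marker levels differed between the groups, these fits cannot separate the drug from the marker level. Summed adipocyte markers were 38.5 to 53.1 FPKM in vehicle and 51.2 to 116.0 after oxaliplatin (3 of 11 called higher), endothelial markers 81.9 to 118.8 and 108.4 to 129.9 (0 of 12 by edgeR and limma voom, 1 by DESeq2, 6 at an unadjusted p under 0.05), and fibroblast markers 870.2 to 1261 and 1142 to 1421 (1 of 12). After oxaliplatin edgeR called 0 markers in either direction among 12 of satellite glia, 12 of Schwann cells and myelin, 16 of macrophages, 13 of neutrophils and 5 of T and NK cells (at an unadjusted p under 0.05, 0 higher and 1 lower, 2 and 0, 2 and 3, 0 and 0, 1 and 1). DESeq2 called 2 macrophage markers higher and 1 lower and 1 T and NK cell marker lower, and limma voom called 2 macrophage markers higher. Over all 15809 genes tested, 1452 were higher and 1274 lower at an unadjusted p under 0.05 (edgeR). DESeq2 called 427 higher and 453 lower of all 20152 genes, and limma voom 328 and 271 of 15809. Which cells held the mitotic transcripts was not tested.

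**Figure D5:**
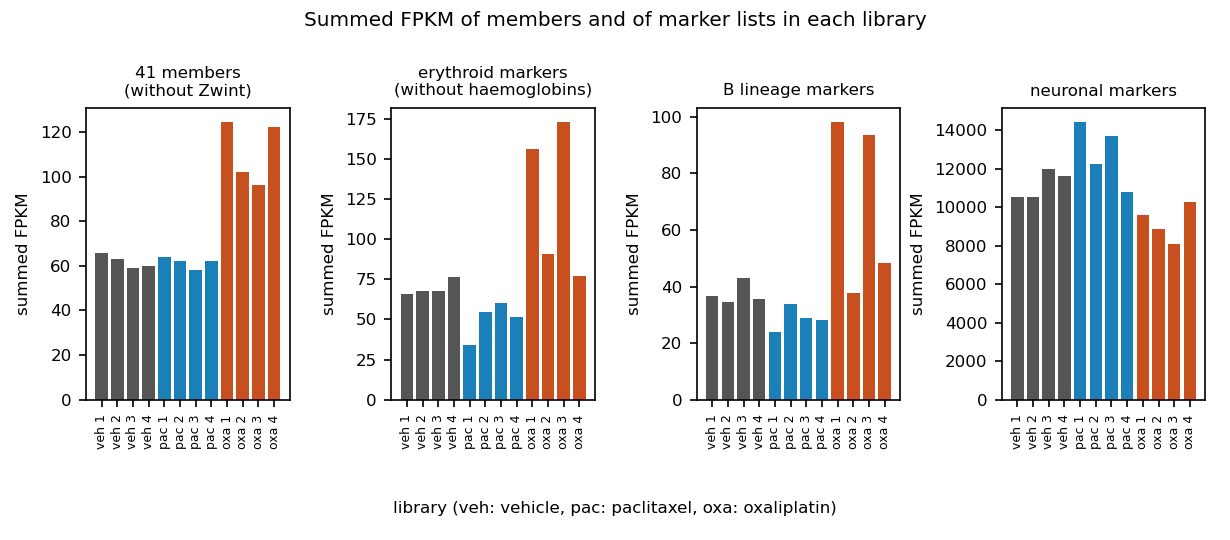
Summed FPKM in each library of the 41 mitotic genes other than Zwint and of 3 marker lists, with bars from 0. The mitotic sum is 96.0 to 124.5 in the oxaliplatin libraries and at most 65.6 in the other 8, while the erythroid and B lineage sums are highest in oxaliplatin 1 and 3.

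Other genes of the cell cycle were examined from lists of known members. Of 59 further mitosis genes tested, 12 rose after oxaliplatin and 0 fell, against 1.05% and 0.708% of all genes tested. The list had a median log2 fold change of 0.64. Its 2 members with the highest levels, Cdc25b, the phosphatase that activates CDK1 (0.40, adjusted p = 0.0715, edgeR), and Incenp, the scaffold of the passenger complex (0.01, adjusted p = 0.962), were not called. Of 42 S phase and replication genes, 8 rose and 0 fell, with a median of 0.32, and the 2 with the highest levels, the sliding clamp Pcna (0.00, adjusted p = 0.996) and the nucleotide hydrolase Dut (0.06, adjusted p = 0.772), were not called. Whether the median of these lists differed from that of the 42 genes was not tested. Between the drugs, 29 of the 59 and 12 of the 42 were called higher after oxaliplatin and 0 lower, against 6.6% and 4.71% of all genes. After paclitaxel, edgeR called 0 in either list against vehicle. At an unadjusted p under 0.05, 4 and 5 passed, against 17.1% of all genes tested. DESeq2 also called 0 in both, and limma voom 2 higher and 1 lower in the first list and 4 lower in the second. Over all genes, voom called 6.98% higher and 5.78% lower.

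Among 20 genes of the DREAM and MuvB complexes and the E2F family, 1 rose after oxaliplatin, against 1.05% of all genes tested. It was Mybl2, which encodes B-MYB. Mybl2 had 0.20, 0.31, 0.46 and 0.37 FPKM in vehicle and 1.19, 0.80, 0.55 and 1.1 after oxaliplatin, without overlap (1.41 ± 0.30, adjusted p = 0.0359, edgeR). Foxm1 had 1.64, 1.49, 1.48 and 0.95 FPKM in vehicle and 2.19, 2.15, 1.96 and 2.48 after oxaliplatin (0.67 ± 0.17, adjusted p = 0.0669), and E2f8, a repressor of the E2F family, a log2 fold change of 1.41 ± 0.37 (adjusted p = 0.0715). Foxm1, E2f8 and Nfya, a subunit of NF-Y, also lay above all vehicle libraries. The MuvB subunits Lin9, Lin37, Lin52, Lin54 and Rbbp4, the pocket proteins Rb1, Rbl1 and Rbl2 and the NF-Y subunits Nfya, Nfyb and Nfyc were not called, with log2 fold changes of -0.09 (Lin54) to 0.41 (Rbl1). Tfdp1, E2f1, E2f2, E2f3, E2f4 and E2f7 were not called either, at -0.02 (E2f3) to 0.60 (E2f7). DESeq2 called 3 of the 20 higher over vehicle and limma voom 1, against 427 of 20152 and 328 of 15809 genes. Between the drugs, edgeR called 6 of the 20 higher after oxaliplatin and 0 lower, against 6.6% and 4.71% of all genes.

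Among 12 inhibitors of cyclin-dependent kinases, G1 cyclins and their kinases, 1 rose after oxaliplatin, against 1.05% of all genes tested. It was Cdkn1a, which encodes p21, an inhibitor of these kinases. Cdkn1a had 7.82, 5.86, 5.33 and 4.90 FPKM in vehicle, 12.86, 14.88, 8.73 and 10.81 after paclitaxel and 34.07, 32.29, 22.57 and 37.54 after oxaliplatin. The 3 groups of Cdkn1a did not overlap, and it rose over vehicle after oxaliplatin (2.37 ± 0.20, adjusted p = 0.000229, edgeR) and was not called by edgeR after paclitaxel (1.03 ± 0.20, adjusted p = 0.0848). DESeq2 (adjusted p = 0.000199) and limma voom (adjusted p = 0.027) called Cdkn1a higher after paclitaxel too. A relation of Cdkn1a to the mitotic genes across libraries was not tested. The kinases Cdk2, Cdk4 and Cdk6 (0.46, 0.04 and 0.01) and the cyclins Ccnd1, Ccnd2 and Ccnd3 (0.13, 0.43 and 0.26) were not called over vehicle by edgeR. DESeq2 called 3 of the 12 higher over vehicle and limma voom 2, against 427 of 20152 and 328 of 15809 genes. Between the drugs, edgeR called 6 of the 12 higher after oxaliplatin and 0 lower, against 6.6% and 4.71% of all genes.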

How the data were processed

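Per the labels' protocols, rat dorsal root ganglia were flash frozen, Trizol was used to isolate RNA, and 12 BGISEQ-500 libraries were built. The authors deposited 1 table per library with an expected count, an estimated count that need not be whole, and an FPKM value per gene, per the file headers. CASAVA 1.4 and Bowtie2 are named in the submitters' processing notes, while the quantification tool, strand setting and genome build are not given in the sources used here. No FPKM below 0.01 appears in the deposited tables, and a gene missing from one was set to 0. Groups and replicate numbers came from sample titles.

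Expected counts were rounded and fitted with edgeR 4.0.16 (R 4.3.3): default filter (minimum count 10), TMM, robust quasi-likelihood fit of 3 group means over 12 libraries (9 residual degrees of freedom), two-sided tests, Benjamini-Hochberg adjustment over 15809 genes, called under 0.05. CPM values are scaled by TMM. The script was tested on simulated data. Alternatives were DESeq2 1.42.0, limma 3.58.1 (voom, and log2(FPKM + 1) or log2(FPKM + 0.1)), other filters and scaling, covariates, a replicate block and leaving out libraries. A gene whose count was not whole in more than 6 of 12 libraries is called uncertain (7 of the 42; 32 were whole in all). Within groups, libraries differed by chi-square of 8.07 to 44.9 per gene, so none was a duplicate within sampling noise. The number of libraries, 4 per group, limits the precision. Per-library values are given for the 1 to 3 genes of each role with the highest mean FPKM, for the largest and smallest differences and for others chosen after values were seen. The 42 genes and the other lists were chosen with earlier results of these data known. Promoter letters came from RefSeq windows of assembly GRCr8, matched by gene ID.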

Additional observations from a re-analysis of the deposited data

Results flagged for a closer look

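Of 129 groups of 4 libraries checked (the CPM of 42 genes and the summed level, in 3 groups), 3 held a library whose gap to the others exceeded Dixon's 95% critical value, and chance flags about 1 in 20 groups. Bub1b, the checkpoint protein BUBR1, was at 2.987 CPM in oxaliplatin 2 and at 2.809 to 2.829 in the other 3 oxaliplatin libraries, a small difference within a tight group. Tpx2, the activator of Aurora A, was at 7.438 CPM in paclitaxel 1 and at 4.821 to 5.221 in the other 3 paclitaxel libraries. Nusap1, a spindle protein, was at 1.995 CPM in paclitaxel 2 and at 2.672 to 2.782 in the other 3.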

How the results depend on the processing

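Against vehicle, 21 genes were called higher after oxaliplatin, and 14 with the replicate block, 32 with limma on log2(FPKM + 1), 9 with the erythroid or the B lineage list as covariate, 10 with only oxaliplatin 2 and 4 in that group (chosen after seeing the data) and 12 to 24 leaving out 1 library. The other planned settings gave 15 to 31. The 1 gene called lower, Zwint, became 0 with only the 2 groups compared, the replicate block, either covariate or only oxaliplatin 2 and 4, and 0 to 1 leaving out 1 library. For paclitaxel, 0 higher and 0 lower became 2 and 1 with voom and 0 to 2 and 0 to 1 leaving out 1 library, where paclitaxel 4 made the difference, while calls over all genes went from 13 and 6 to 1104 and 913 with voom and 921 and 710 without paclitaxel 4. Between the drugs, 32 higher and 1 lower became 1 and 0 with either covariate (32 and 29 higher at an unadjusted p under 0.05, medians 1.25 and 1.01 against 1.02, and 3 higher of all genes in each fit against 1044), 12 and 0 with only oxaliplatin 2 and 4, and 24 to 33 higher leaving out 1 library. Possible causes were not tested and cannot be told apart, since the levels of the covariate markers differed between the groups and the last settings use fewer libraries. Aurka reversed between the drugs with the erythroid covariate (0.048, adjusted p = 0.99). Mki67, Top2a, Cdk1, Ccnb2, Cenpf, Aurkb, Ckap2, Gtse1 and Prc1 were called against vehicle in all 24 settings. The labels do not say whether replicate numbers pair the samples. Deviations of same-numbered libraries correlated at -0.23 to 0.16, and those of differently numbered libraries at -0.25 to 0.24. These ranges are alike and cannot exclude a pairing or a shared batch. The replicate block gave 0 and 0 for paclitaxel and 28 and 1 between the drugs. Scaling moved the share of calls over all genes that were higher, from 59.7% to 48.5% with DESeq2, 75.0% without TMM and 75.5% to 77.6% on FPKM for oxaliplatin, and from 58.4% to 48.1%, 83.7% and 84.4% to 84.7% between the drugs. Low counts limit most of these genes, whose mean vehicle count was 14.8 at the lowest and 48 at the median.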
